A study of Mus musculus with 4 samples.

Results

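The lysosomal proteases, hydrolases and proton pump examined here are 34 genes given as a list of symbols, all found among the 22620 genes of the deposited count tables. The rule that lists them uses no measured value, but the list was drawn up with earlier results of these data known. They comprise 10 protease genes (the cathepsins and legumain), 9 genes of other acid hydrolases, 5 genes of activator precursors and lysosomal membrane proteins, 3 genes of regulators with their calcium channel, and 7 genes of the vacuolar proton pump (V-ATPase). The cells came from MC38 tumours, grown from a mouse colon carcinoma line, in wild-type (WT) or Park2-/- (KO) mice. Cells carrying CD45, the pan-leukocyte surface protein, were enriched from digested tumours with magnetic beads and profiled by droplet single-cell RNA sequencing that counts transcripts at their 3′ end, with 2 libraries per genotype and no treatment named. The labels give neither the age or sex of the mice, nor the number of mice behind a library, nor the cells in which the allele acts, so the p-values below measure the spread between libraries, which may be technical.

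Lysosomes are acidic organelles that degrade material taken up by endocytosis, phagocytosis and autophagy. The V-ATPase pumps protons into them, the low pH activates hydrolases made as inactive precursors, and cathepsins cut proteins into peptides, including the invariant chain and antigens that are presented on MHC class II. The transcription factors TFEB and TFE3 bind E-boxes with the core CACGTG near the start sites of many lysosomal genes. Tumour macrophages are known as phagocytes rich in lysosomes and as a source of secreted cathepsins.

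RefSeq promoter windows of the GRCm38.p6 assembly, from 250 bases before to 50 bases after the annotated start, were found for 28 of the 34 members; Ctsb, Ctsh, Asah1, Atp6v0d2, Atp6v1b2 and Atp6v1h are named only. The letters CACGTG, which read alike on both strands, stood in the windows of 11 of the 28 members (39.3%), against 8.09% of the 27025 genes in the table and 7.15% of its 32851 windows. The longer letters TCACGTGA, which contain CACGTG, stood in 6 of the 28 (21.4%), against 1.12% of genes and 0.974% of windows. A match is a description of these letters, and nothing about binding follows from its presence or absence. Among the 10 members with higher macrophage expression in KO libraries described below, 3 held CACGTG (Ctsd, Ctsl and Gla), as did 8 of the 18 other members with a window.

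The 4 whole windows that follow are shown because their genes carry the macrophage result: Ctsd, Ctsl and Gla with the motif in capitals, and Ctss, the gene with the largest called change, without it. They lie at chr7:142387778-142388077 on the minus strand (Ctsd), chr13:64370471-64370770 on the minus strand (Ctsl), chrX:134600956-134601255 on the minus strand (Gla) and chr3:95526536-95526835 on the plus strand (Ctss). The matches began 245 and 98 bases before the start of Ctsd, 236 bases before that of Ctsl, and 227 and 194 bases before that of Gla. The RefSeq starts of Ctsd, Ctsl and Gla used here lie inside the gene spans that GENCODE gives, downstream of the outermost GENCODE start. The whole Ctsl window with its match lies inside the gene span, as does the Ctsd match 98 bases before the RefSeq start.
Ctsd: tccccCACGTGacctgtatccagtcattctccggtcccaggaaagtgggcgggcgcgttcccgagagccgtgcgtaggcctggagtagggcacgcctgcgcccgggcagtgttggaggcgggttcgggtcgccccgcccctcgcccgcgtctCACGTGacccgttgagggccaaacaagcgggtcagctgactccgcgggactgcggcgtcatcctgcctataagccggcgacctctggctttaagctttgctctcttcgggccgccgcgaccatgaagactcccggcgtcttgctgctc
Ctsl: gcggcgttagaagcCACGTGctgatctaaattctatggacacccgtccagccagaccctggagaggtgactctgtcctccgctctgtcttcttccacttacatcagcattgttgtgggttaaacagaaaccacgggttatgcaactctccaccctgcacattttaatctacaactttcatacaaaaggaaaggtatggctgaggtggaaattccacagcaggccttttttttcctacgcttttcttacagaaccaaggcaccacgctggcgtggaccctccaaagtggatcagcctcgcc
Gla: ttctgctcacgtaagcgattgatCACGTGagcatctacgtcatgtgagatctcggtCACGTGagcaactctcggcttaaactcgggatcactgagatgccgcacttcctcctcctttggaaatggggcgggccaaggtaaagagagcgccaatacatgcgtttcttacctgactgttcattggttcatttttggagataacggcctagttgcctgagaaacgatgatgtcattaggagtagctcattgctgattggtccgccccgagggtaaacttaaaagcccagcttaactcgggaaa
Ctss: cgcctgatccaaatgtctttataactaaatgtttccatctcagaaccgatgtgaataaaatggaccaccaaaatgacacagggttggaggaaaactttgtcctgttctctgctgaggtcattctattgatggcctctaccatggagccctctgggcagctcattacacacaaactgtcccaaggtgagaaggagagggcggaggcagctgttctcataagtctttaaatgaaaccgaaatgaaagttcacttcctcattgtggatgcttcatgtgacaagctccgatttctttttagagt
For comparison, shorter stretches around the motif are shown for members whose macrophage level did not pass the test although they hold it: Lamp1 at chr8:13159073-13159132 on the plus strand, whose window held 4 matches, Atp6v0d1 at chr8:105566035-105566094 on the minus strand, and Atp6v1a at chr16:44139358-44139417 on the minus strand.
Lamp1: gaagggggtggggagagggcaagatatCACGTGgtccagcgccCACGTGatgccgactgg
Atp6v0d1: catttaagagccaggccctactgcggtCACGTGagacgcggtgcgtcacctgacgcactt
Atp6v1a: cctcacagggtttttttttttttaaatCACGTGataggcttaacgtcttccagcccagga

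The libraries held 9239 (WT 1), 9369 (WT 2), 18324 (KO 1) and 10344 (KO 2) barcodes, of which 44184 were kept, and between 94213071 and 130466357 transcript counts (unique molecular identifiers, UMIs). KO 1 had the most barcodes and the lowest median depth, 6052 UMIs per kept barcode against 8308 to 12133 in the other libraries, so results are also given without it. Pairs of libraries shared 21 to 49 barcode sequences, with 0 identical profiles. Cells were assigned to types by fixed marker panels that hold none of the 34 members, and 35680 of the kept barcodes were assigned. The macrophage-like cells numbered 5701, 6107, 10643 and 5545 in the same order of libraries; C1qa, C1qc, Ms4a7, Apoe and Ccl12 led their expression over other cells. Of these 27996 cells, 938 lay within 10% of a limit of the assignment, and 697 barcodes lay just outside it.

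In macrophage-like cells the lysosomal genes were, as a group, more abundant in the KO libraries, with the protease genes and prosaposin supplying most of the difference. The 34 members together supplied 1.95% and 1.85% of all macrophage UMIs in WT 1 and WT 2, and 2.70% and 2.51% in KO 1 and KO 2. The cathepsins and legumain supplied 1.14% and 1.09% in the WT and 1.67% and 1.56% in the KO libraries. The V-ATPase genes supplied 0.199% and 0.215% in the WT and 0.238% and 0.240% in the KO libraries, and the 3 regulator genes 0.00746% and 0.00689% against 0.00708% and 0.00655%. The genotypes did not overlap in the first of these groups or in the pump, and overlapped in the regulators. Most of the pump sum came from Atp6v0c, whose level is uncertain for the reason given with the V-ATPase genes below. The separation of the pump sums is therefore not read as a result for the other pump genes.

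Tested with edgeR (quasi-likelihood, p-values adjusted after Benjamini and Hochberg), 10 of the 34 members rose in KO macrophage-like cells (adjusted p below 0.05) and 0 fell, while 5.50% of the 12605 genes tested rose and 3.83% fell. DESeq2 called 20 members higher, against 8.39% of all genes. The members that rose were Ctsc, Ctsd, Ctsl, Ctss, Ctsz, Hexa, Gla, Man2b1, Lipa and Psap. The median log2 change of the members was 0.35, against -0.01 over all genes tested, and 94.1% of members lay above 0, against 48.1% of all genes. Without KO 1 the test called 3 members higher (Ctss, Gla and Atp6v0d2) and 1 lower (Ctsk), against 2.76% and 1.54% of all genes, with a member median of 0.31. Scaling to total counts in place of edgeR's trimmed mean moved the median of all genes to -0.13 and turned 693 higher against 483 lower calls into 515 against 959, that is 4.09% and 7.61% of genes, with the members then at a median of 0.22 and 9 called higher.

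**Figure D1:**
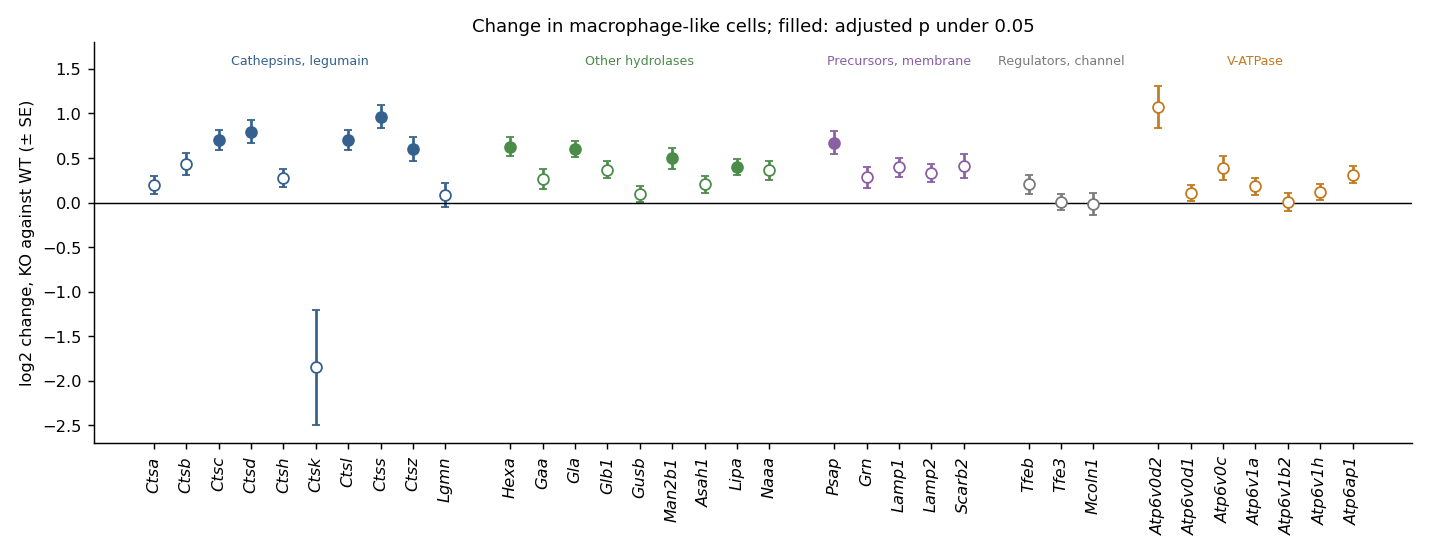
Log2 change (KO over WT) of the 34 members in macrophage-like cells, 1 point per gene with its standard error, grouped by role; filled points passed the adjusted test. The filled points reach up to 0.96. The regulators Tfe3 and Mcoln1 sit near 0, and Tfeb lies at 0.21 without passing. Atp6v0d2 lies at 1.07 without passing, and Ctsk lies at -1.85 with a wide error.

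Of the cathepsins and legumain, 5 of 10 rose, 0 fell, and their median log2 change was 0.52. Ctss encodes cathepsin S, a cysteine protease that trims the invariant chain of MHC class II in antigen-presenting cells; the gene (ENSMUSG00000038642) lies at chr3:95526786-95556403 on the plus strand (GENCODE M21, GRCm38, as for all gene positions here). Its level, in counts per 1e6 UMIs summed over the macrophage-like cells of a library (CPM), was 2598 and 2846 in WT 1 and WT 2 and 4939.5 and 4830.1 in KO 1 and KO 2. Both KO libraries stood far above both WT libraries, and the means were 2722 ± 175 and 4885 ± 77.4 CPM (SD, n = 2 each). The log2 change was 0.96 with a standard error of 0.13 and an edgeR adjusted p of 0.0065. CPM are not scaled by edgeR's trimmed mean, whereas the edgeR log2 changes are unless total counts are named. Levels and log2 changes can therefore differ in size and, for genes near 0 such as Gusb and Lgmn, in sign. With each cell thinned to 4000 UMIs, the median macrophage-like cell held 9 and 10 Ctss UMIs in the WT and 17 and 16 in the KO libraries, after 606 to 2916 shallower cells per library were left out.

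Ctsd (chr7:142375911-142388038, minus strand) encodes the aspartic protease cathepsin D. It was measured at 1547 and 1292 CPM in the WT and 2433 and 2085 CPM in the KO macrophage-like cells, a log2 change of 0.79 ± 0.13 (SE; edgeR adjusted p = 0.0126). Ctsl (chr13:64359337-64370890, minus strand), for the cysteine endoprotease cathepsin L, was at 1179 and 1246 CPM in the WT and 1869 and 1764 CPM in the KO libraries, a log2 change of 0.70 ± 0.12 (SE; edgeR adjusted p = 0.0127). For both genes the lowest KO library was above the highest WT library. The median thinned cell held 4 and 4 Ctsd UMIs in the WT and 7 and 6 in the KO libraries, and 3 and 3 against 5 and 5 Ctsl UMIs. Exons of Ctsd and Ctsl overlap on the same strand with Gm49369, counted at 0 in every cell type here, and with the pseudogene Gm49230, which the count tables do not list.

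Ctsc (chr7:88278085-88310888, plus strand) encodes the dipeptidyl peptidase that activates granule serine proteases. Its macrophage levels were 1403 and 1295 CPM in the WT and 2127 and 1903 CPM in the KO libraries, and the log2 change was 0.70 ± 0.11 (SE; edgeR adjusted p = 0.0126). Ctsz (chr2:174427493-174439039, minus strand), for the carboxypeptidase cathepsin X/Z, was at 737 and 881 CPM against 1117 and 1153 CPM, with a log2 change of 0.60 ± 0.14 (SE; edgeR adjusted p = 0.0346). In both genes the KO libraries again lay above the WT libraries. Without KO 1 the adjusted p was 0.0646 for Ctsc, 0.0519 for Ctsd, 0.0531 for Ctsl and 0.0806 for Ctsz, with log2 changes of 0.63, 0.69, 0.67 and 0.64, so that Ctss alone of the 5 called proteases stayed past the threshold there. Ctsz also lost its call without WT 1 (0.107) and without KO 2 (0.0807).

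The other 5 protease genes did not pass. Ctsb, for cathepsin B, which cuts both within chains and at their ends, was at 1829.9 and 1524 CPM in the WT and 2224 and 1935 CPM in the KO libraries (log2 change 0.43, edgeR adjusted p = 0.0764). Ctsh, for an aminopeptidase, had a log2 change of 0.27, Ctsa, for the carboxypeptidase that protects beta-galactosidase and neuraminidase, 0.20, and Lgmn, for the asparaginyl endopeptidase legumain, 0.08. Lgmn overlapped between the genotypes, at 1125 and 835 CPM against 964 and 941 CPM.

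Ctsk, for the collagen-degrading protease best known in osteoclasts, was the protease gene with a negative value. It was at 48.5 and 49.0 CPM in the WT and 6.45 and 18.5 CPM in the KO macrophage-like cells, groups that did not overlap, but the log2 change of -1.85 had a standard error of 0.65 and an edgeR adjusted p of 0.227. In cells of 5000 to 15000 UMIs the log2 change was 1.04, and it was -0.61 under a stricter assignment, whereas without KO 1 or KO 2 and at a mitochondrial limit of 10% the gene was called lower, with -1.26, -2.81 and -2.29. After thinning, mean Ctsk UMIs per macrophage-like cell were 0.111 and 0.136 in the WT and 0.0255 and 0.0747 in the KO libraries, although similar shares of cells held a Ctsk UMI, 1.63% and 2.74% against 1.62% and 2.54%. Before thinning these shares were 4.10% and 5.68% against 3.21% and 6.49%. T-like cells, which should lack the gene, held a Ctsk UMI in 0.408% to 1.76% of cells before thinning, at median depths of 2802 to 2908.5 UMIs against 8476 to 13172 in macrophage-like cells. Summed fibroblast markers (5 of 5 with a UMI in every library) were at 17.4, 10.5, 8.30 and 6.84 CPM in the macrophage-like cells of WT 1, WT 2, KO 1 and KO 2, and their part in the Ctsk values was not tested.

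**Figure D2:**
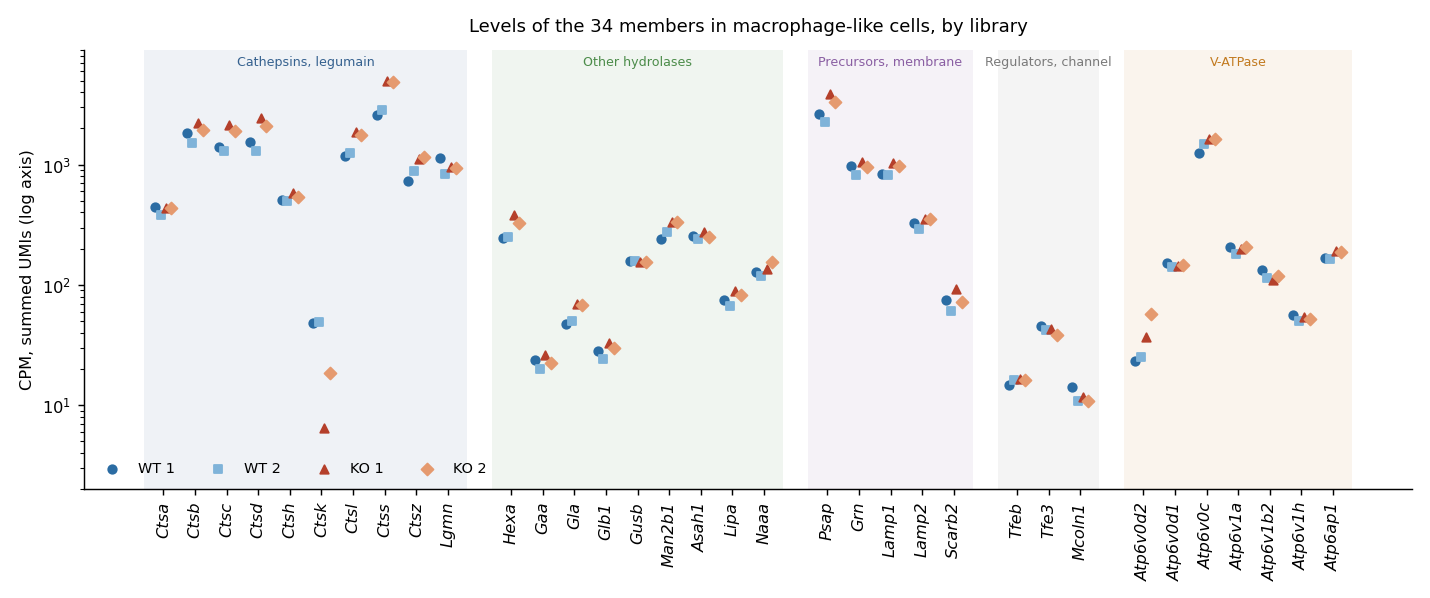
Level of each member in macrophage-like cells in each of the 4 libraries, in CPM on a log axis, with WT and KO libraries in separate colours. Ctss, Ctsd, Ctsl, Ctsc and Psap show both KO points above both WT points, while Gusb, Tfe3 and the V-ATPase subunits Atp6v1h and Atp6v0d1 show points that nearly coincide.

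Among the other acid hydrolases, 4 of 9 rose and 0 fell, with a median log2 change of 0.37. Hexa (chr9:59539540-59565109, plus strand), for the alpha subunit of the beta-hexosaminidase that degrades GM2 ganglioside, was at 247 and 249 CPM in the WT and 378 and 327 CPM in the KO macrophage-like cells. Its log2 change was 0.63 ± 0.11 (SE; edgeR adjusted p = 0.0143), and without KO 1 it was 0.53 with an adjusted p of 0.0709. Gla (chrX:134588149-134601125, minus strand), for alpha-galactosidase A, the enzyme deficient in Fabry disease, was at 47.5 and 50.2 CPM against 68.9 and 67.6 CPM. Its libraries varied little within a genotype, and the log2 change was 0.60 ± 0.09 (SE; edgeR adjusted p = 0.0117). Gla and Ctss passed the test in each of the 14 alternatives run on the macrophage-like cells as a whole, Gla with log2 changes of 0.37 to 0.69 and Ctss with 0.75 to 1.08.

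Man2b1 (chr8:85083270-85098282, plus strand), for the lysosomal alpha-mannosidase, was at 239 and 276 CPM in the WT and 334 and 336 CPM in the KO libraries, a log2 change of 0.50 ± 0.12 (SE; edgeR adjusted p = 0.0417). Lipa (chr19:34492318-34527474, minus strand), for the acid lipase that hydrolyses cholesteryl esters, was at 74.9 and 66.9 CPM against 89.6 and 82.4 CPM, a log2 change of 0.40 ± 0.09 (SE; edgeR adjusted p = 0.0379). Without KO 1 the adjusted p was 0.115 for Man2b1 and 0.217 for Lipa, without KO 2 it was 0.0949 and 0.0644 and without WT 1 0.136 and 0.065. Without WT 2 that of Lipa was 0.0795, and under total counts that of Lipa was 0.103.

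The remaining hydrolases did not pass the test. Glb1, for beta-galactosidase, had a log2 change of 0.37 and Naaa, for the amidase of N-acylethanolamines, 0.36, with edgeR adjusted p of 0.0604 and 0.0733. Exons of Glb1 overlap those of Tmppe on the same strand. Gaa, for the acid alpha-glucosidase that degrades glycogen, stood at 0.27 and Asah1, for acid ceramidase, at 0.21. Gusb, for beta-glucuronidase, was nearly level, at 157 and 158 CPM in the WT and 156 and 154 CPM in the KO libraries.

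Of the precursors and membrane proteins, 1 of 5 rose, with a median log2 change of 0.39. Psap (chr10:60277627-60302597, plus strand) encodes prosaposin, which is cut into the saposins that present sphingolipids to hydrolases. It was at 2618 and 2254 CPM in the WT and 3832 and 3291 CPM in the KO macrophage-like cells, a log2 change of 0.67 ± 0.13 (SE; edgeR adjusted p = 0.0216), and 0.57 with an adjusted p of 0.118 without KO 1. The median thinned cell held 9 and 8 Psap UMIs in the WT and 12 and 11 in the KO libraries. Lamp1 and Lamp2, for the abundant glycoproteins that line the lysosomal membrane, had log2 changes of 0.39 and 0.33 (edgeR adjusted p = 0.0582 and 0.077). Lamp1 was at 838 and 821 CPM in the WT and 1037 and 969.6 CPM in the KO libraries, without overlap. Scarb2, for the membrane receptor that carries beta-glucocerebrosidase to lysosomes, had 0.41, and Grn, for progranulin, 0.28.

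Of the regulators, 0 of 3 passed in edgeR, at an unadjusted p below 0.05 and in DESeq2 alike. Tfeb was at 14.6 and 16.1 CPM in the WT and 16.5 and 16.1 CPM in the KO macrophage-like cells (log2 change 0.21, edgeR adjusted p = 0.259). Tfe3 was at 45.9 and 41.9 CPM against 42.6 and 38.5 CPM, and its log2 change of 0.01 became -0.12 under total counts. Mcoln1, for the lysosomal calcium channel mucolipin, was at 14.1 and 10.9 CPM against 11.7 and 10.9 CPM. These are transcript levels, and the activity of TFEB and TFE3, which depends on their location in the cell, was not measured.

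None of the 7 V-ATPase members passed in edgeR, and their median log2 change was 0.18 (0.06 under total counts). DESeq2 called 3 of them higher (Atp6v0d2, Atp6v0c and Atp6ap1), against 8.39% of all genes. Atp6v0d2, for the alternative d subunit used in osteoclasts and macrophages, had the largest value, at 23.2 and 25.1 CPM in the WT and 36.6 and 56.8 CPM in the KO libraries, a log2 change of 1.07 ± 0.23 (SE; edgeR adjusted p = 0.0587). Its counterpart Atp6v0d1, used in most tissues, was at 151 and 141 CPM against 144 and 145 CPM. Atp6v0c, for the proteolipid ring through which protons pass, was at 1253 and 1475 CPM against 1645 and 1637 CPM (log2 change 0.38, edgeR adjusted p = 0.115); it has 2 processed pseudogenes that the count tables do not list, so its level is uncertain. Atp6ap1, for an accessory subunit, had 0.31 (edgeR adjusted p = 0.0753). The catalytic-sector genes Atp6v1a, Atp6v1h and Atp6v1b2 had log2 changes of 0.18, 0.11 and 0.01, of which the 0.11 and 0.01 became -0.01 and -0.12 under total counts.

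Counted without a test, both KO libraries lay above both WT libraries for 20 members and below them for 2 (Ctsk and Gusb), and 12 members overlapped. Over all genes tested, 16.2% lay above and 47.4% below. Markers of other cell types moved within the macrophage sums. T-cell markers (9 of 9 with a UMI in every library) summed to 8.84 and 15.7 CPM in the WT and 57.7 and 32.5 CPM in the KO libraries, NK-cell markers (6 of 7) to 4.63 and 8.32 against 21.8 and 16.0 CPM, and monocyte markers (10 of 10) to 1316 and 828 against 765 and 676 CPM. Of the tumour and erythroid markers, Cldn4 and Alas2 were at 0 in all libraries. The part of these markers in the macrophage changes was not tested.

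Other genes of the same pathway, from lists that exclude the 34 members, showed a similar mix in KO macrophage-like cells. Among 32 further lysosomal enzymes 8 rose and 1 fell (median log2 change 0.29). Among 11 further V-ATPase subunits 2 rose (0.33), among 16 tested of 18 cathepsin inhibitors and sorting genes 5 rose (0.30), and among 14 genes of nutrient sensing at the lysosome 0 passed (0.16). Igf2r, for the mannose-6-phosphate receptor that sorts hydrolases to lysosomes, had the largest change among the called genes of these lists, at 13.1 and 15.7 CPM in the WT and 45.9 and 40.6 CPM in the KO libraries (log2 change 1.70, edgeR adjusted p = 0.00099). Cst7, for the cathepsin inhibitor cystatin F, rose at a low level, from 1.92 and 2.68 to 5.32 and 4.68 CPM (log2 change 1.23, edgeR adjusted p = 0.0135).

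Cpq, for a secreted and lysosomal carboxypeptidase, was at 24.6 and 30.1 CPM in the WT and 59.2 and 55.0 CPM in the KO macrophage-like cells (log2 change 1.18, edgeR adjusted p = 0.0038). Aga, for an amidase of glycoproteins, rose by a log2 change of 0.60 and Npc2, for the cholesterol carrier of the lysosome lumen, by 0.59, and Laptm4a and Cd68, for lysosomal membrane proteins, by 0.55 and 0.52. The calls of Npc2, Laptm4a and Cd68 were lost without KO 1 (edgeR adjusted p = 0.121, 0.0837 and 0.114) and without WT 1 (0.122, 0.0523 and 0.135), and those of Npc2 and Cd68 also without KO 2 (0.0721 and 0.102). In cells of 5000 to 15000 UMIs the log2 change of Cd68 was 0.33 with an adjusted p of 0.11. Tcirg1 and Atp6v1e1 were the 2 pump genes that rose, by log2 changes of 0.45 and 0.37, and both lost the call without WT 1, WT 2 or KO 1 and under total counts, and Atp6v1e1 also without KO 2. Acp5, for the tartrate-resistant acid phosphatase of osteoclasts and macrophages, fell from 83.0 and 107 CPM to 49.5 and 47.0 CPM (log2 change -0.86, edgeR adjusted p = 0.0196). Without KO 1 its adjusted p was 0.0623, under a stricter assignment its log2 change was -0.44 (adjusted p = 0.349), and in cells of 5000 to 15000 UMIs it was -0.09 (adjusted p = 0.89).

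Macrophage-like cells are not uniform, and the 2 genotypes filled their states differently, so the members were also compared within 8 ranges of short marker scores, each named by its marker genes. These are ranges of a continuous score, not cell types, with 329 to 834 cells of each near its limit. Cells high for Chil3, Ear2 and Fn1 made up 28.4% and 16.2% of WT and 4.88% and 9.40% of KO macrophage-like cells, and cells high for Fcrls, Cx3cr1 and Gpr34 19.8% and 23.9% against 4.20% and 4.24%. Cells high for C3 and Vcam1 made up 2.70% and 4.99% in the WT against 21.5% in KO 1 and 721 of 5545 cells in KO 2, and cells high for Cxcl9 and Cxcl10 3.02% and 5.78% against 18.7% and 15.5%. With every range given equal weight in every library, limma on log2(mean CPM + 1) called 8 of the 34 members higher, the 10 less Ctsz and Lipa, and 3.12% of all genes.

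**Figure D3:**
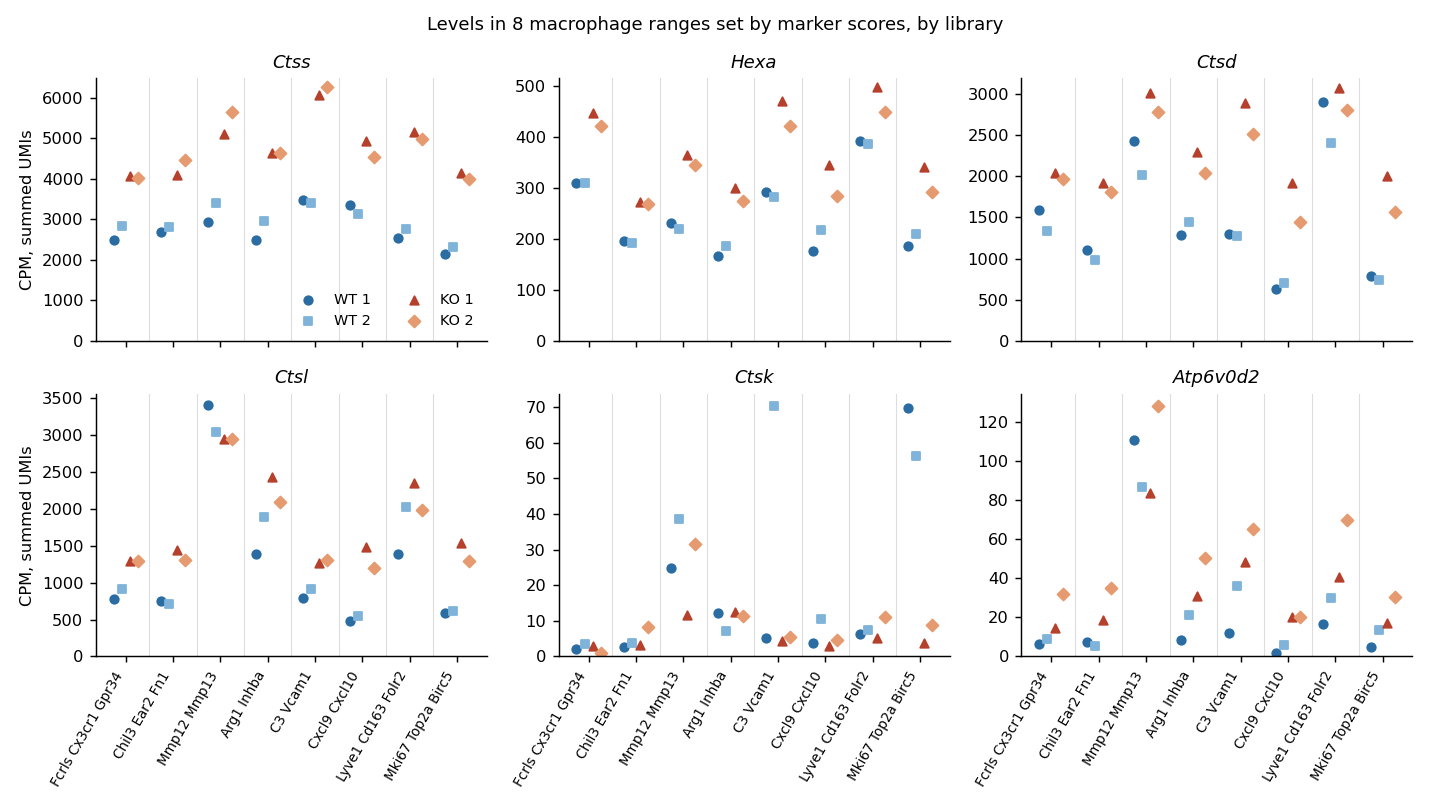
Levels of Ctss, Hexa, Ctsd, Ctsl, Ctsk and Atp6v0d2 in each of the 8 macrophage ranges, in CPM on linear axes that start at 0, with 1 point per library and the genotypes in blue (WT) and red to orange (KO). Ctss lies higher in both KO libraries in each range, whereas Ctsl in the Mmp12 Mmp13 range is at 3407 and 3042 CPM in the WT and 2948 and 2950.2 CPM in the KO libraries.

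Ctss and Hexa rose in KO cells in 8 of 8 ranges. The share of all genes that rose was 2.60% in the C3 Vcam1 range, 2.76% in the Arg1 Inhba range, 2.83% in the Mmp12 Mmp13 range, 3.83% in the Fcrls Cx3cr1 Gpr34 range, 3.99% in the Cxcl9 Cxcl10 range, 4.64% in the Lyve1 Cd163 Folr2 range, 5.01% in the Chil3 Ear2 Fn1 range and 7.58% in the Mki67 Top2a Birc5 range. The log2 change of Ctss ran from 0.61 in the Cxcl9 Cxcl10 range, where it was at 3348 and 3125 CPM in the WT and 4920.0 and 4541 CPM in the KO libraries, to 1.09 in the Lyve1 Cd163 Folr2 range, where it was at 2546 and 2769.7 against 5149 and 4980.3 CPM. Hexa ranged from 0.45 in the Lyve1 Cd163 Folr2 range to 0.80 in the Mki67 Top2a Birc5 range of cycling cells. Ctsc was called in 6 ranges and both KO libraries lay above both WT libraries in 8. Ctsz and Man2b1 were each called in 4 ranges, with the KO libraries above in 8.

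Ctsd and Ctsl differed among the ranges. Ctsd rose in 6 ranges, by 1.40 in the Cxcl9 Cxcl10 range (625 and 698 CPM in the WT, 1919.9 and 1443 CPM in the KO libraries; edgeR adjusted p = 4.2e-05) but had 0.31 in the Lyve1 Cd163 Folr2 range (2900.3 and 2409 against 3067 and 2802 CPM; edgeR adjusted p = 0.223), where WT cells held their highest Ctsd mean, 2655 CPM. Ctsl rose in 5 ranges, by 1.43 in the Cxcl9 Cxcl10 range (485 and 549.6 against 1479.5 and 1199.8 CPM), and had -0.18 in the Mmp12 Mmp13 range (edgeR adjusted p = 0.381). There the WT cells were at their highest Ctsl mean, 3225 CPM, against 517 CPM in the WT Cxcl9 Cxcl10 range. The differences between ranges were not tested.

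Ctsb, which missed the threshold in the whole population, rose in 5 ranges, by up to 1.11 in cycling cells (844 and 870.0 against 1843 and 1560.3 CPM), and had -0.15 and 0.04 in the Mmp12 Mmp13 and Lyve1 Cd163 Folr2 ranges. Psap and Gla also rose in 5 ranges each, with 0.01 and -0.34 in the Mmp12 Mmp13 range. Atp6v0d2 rose in 2 ranges, by 2.19 in the Chil3 Ear2 Fn1 range (7.36 and 5.21 against 18.8 and 34.9 CPM; edgeR adjusted p = 0.019) and by 2.12 in the Cxcl9 Cxcl10 range. Its levels were highest in the Mmp12 Mmp13 range, where the libraries overlapped at 111 and 86.8 CPM in the WT and 83.3 and 128 CPM in the KO libraries.

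Ctsk fell in 1 range, that of cycling cells, from 69.6 and 56.2 CPM to 3.80 and 8.86 CPM (log2 change -3.17, edgeR adjusted p = 0.0216). In the C3 Vcam1 range a single library held most of it, 70.2 CPM in WT 2 against 5.22 CPM in WT 1 and 4.34 and 5.51 CPM in the KO libraries. In the cycling cells alone 21 members rose and 1 fell, against 7.58% and 4.74% of all genes, and in the Lyve1 Cd163 Folr2 range 6 rose, against 4.64%.

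Across cell types, 23 of the 34 members had their highest mean level in macrophage-like cells, 8 in neutrophil-like, 2 in monocyte-like and 1 in conventional dendritic cell (cDC)-like cells. For 13 members the macrophage level was above that of the other 5 tested types in every library. Lgmn was among them, at 835 to 1125 CPM in macrophage-like and 173 to 237 CPM in monocyte-like cells, and at 79.8 to 115 CPM in cDC-like cells, ranges that did not overlap. In neutrophil-, CD4 T- and CD8 T-like cells its level did not exceed the free-RNA share described below in every library and is not ordered here. Ctsd was at 1292 to 2433 CPM in macrophage-like, 935 to 1099 CPM in neutrophil-like and 96.6 to 153 CPM in cDC-like cells. For Ctss the macrophage range of 2598 to 4939.5 CPM overlapped the monocyte range of 2184 to 2971 CPM, with cDC-like cells next at 1049.1 to 1309 CPM.

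A few members peaked elsewhere. Naaa was highest in cDC-like cells, at 374 to 630.3 CPM, against 128 to 255 CPM in monocyte-like and 119 to 156 CPM in macrophage-like cells. Gla, Tfeb and Atp6v0c were higher in neutrophil-like cells than in each other type in every library, Gla at 106 to 328 CPM against 47.5 to 68.9 CPM in macrophage-like cells, and Atp6v0c at 1957 to 2743 against 1253 to 1645 CPM. Tfeb rested on 14, 3, 11 and 7 UMIs in the neutrophil-like cells of WT 1, WT 2, KO 1 and KO 2, too few to order it firmly. Ctsh had similar levels in monocyte-, macrophage- and cDC-like cells, with means of 580.3, 531 and 504 CPM and overlapping ranges between neighbours.

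**Figure D4:**
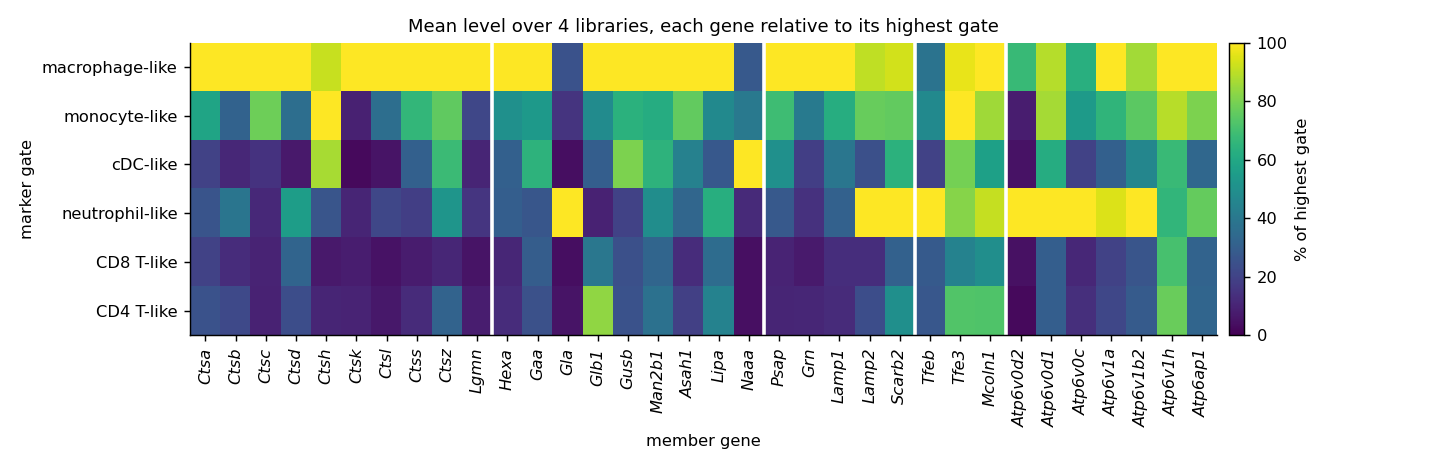
Heat map of the mean CPM over the 4 libraries, with 1 column per member and 1 row for each of the 6 tested cell types; colour gives the level as a percentage of that member's highest cell type, on a linear scale from 0 to 100. Most members are highest in the macrophage row, Ctsh and Tfe3 in the monocyte row, Naaa in the cDC row, and Gla, Tfeb and Atp6v0c are among those highest in the neutrophil row.

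Free RNA from lysed macrophages can place their transcripts in other droplets. C1qa, C1qb and C1qc, complement genes that the other types should lack, were found at 2.85% to 8.32% of the macrophage level of the same library in monocyte-like, 2.33% to 5.05% in cDC-like, 5.91% to 17.4% in neutrophil-like, 2.56% to 7.54% in CD8 T-like and 2.69% to 7.87% in CD4 T-like cells. All 34 members exceeded the C1q share of the same library in monocyte-like cells. Some did not in other types in at least 1 library, namely 2 members in cDC-like cells (Ctsk and Ctsl), 7 in neutrophil-like cells including Ctsc, Lgmn and Grn, 8 in CD8 T-like cells including Ctsl, Hexa and Lgmn, and 3 in CD4 T-like cells (Ctsl, Lgmn and Atp6v0d2). Levels of those genes in those types are not read as expression.

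In monocyte-like cells (405, 307, 922 and 593 cells) 5 of 34 members rose and 1 fell, against 6.18% and 4.05% of the 9531 genes tested. The member median was 0.09. Of the 2227 monocyte-like cells, 315 lay within 10% of a limit of the assignment, and 318 barcodes lay just outside it. Naaa was at 164 and 128 CPM in the WT and 255 and 239 CPM in the KO libraries, a log2 change of 0.79 ± 0.12 (SE; edgeR adjusted p = 0.00053). Ctsz was at 584 and 602 CPM against 843 and 916 CPM, a log2 change of 0.60 ± 0.11 (SE; edgeR adjusted p = 0.0015). Ctss rose from 2184 and 2229 to 2971 and 2701 CPM (log2 change 0.39, edgeR adjusted p = 0.0245), and Man2b1 and Ctsb rose by 0.41 and 0.39. Ctsl went the other way, from 675 and 625 CPM to 481 and 404 CPM, a log2 change of -0.52 ± 0.11 (SE, edgeR adjusted p = 0.0066). That call was lost in several settings. The log2 change was -0.30 (edgeR adjusted p = 0.0705) when barcodes with markers of 2 lineages were kept. It was -0.50 under the stricter assignment (edgeR adjusted p = 0.104) and -0.43 in cells of 5000 to 15000 UMIs (edgeR adjusted p = 0.432). Without KO 1 the log2 changes of Naaa, Ctsz and Ctsl were 0.74, 0.66 and -0.65, and without KO 2 that of Ctsl was -0.39.

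The difference between the macrophage and the monocyte change was tested in a model over both types with the library as a block, where 2.02% of 12304 genes had a larger change in macrophage-like cells and 1.18% a smaller one. It was past the threshold for 5 members, each with the more positive value in macrophage-like cells: Ctsl (difference of log2 changes 1.22 ± 0.11, SE), Ctsd (1.08 ± 0.10), Ctss (0.56 ± 0.10), Hexa (0.44 ± 0.10) and Lamp1 (0.37 ± 0.10). Ctsd itself was at 829 and 660.2 CPM in WT and 651 and 531 CPM in KO monocyte-like cells, a log2 change of -0.30 that did not pass.

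**Figure D5:**
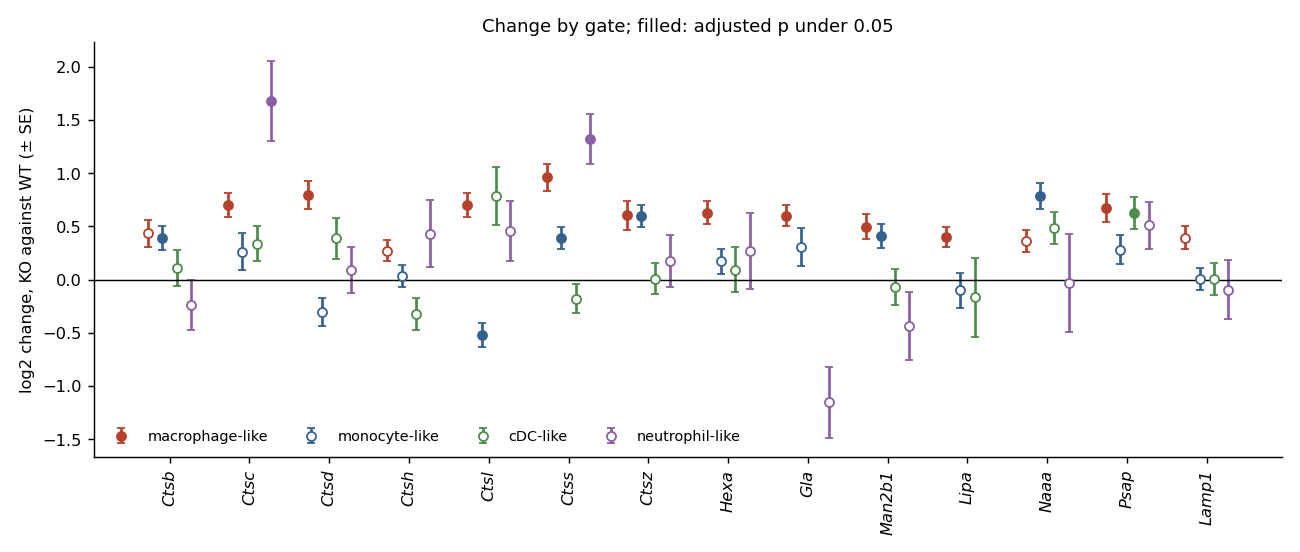
Log2 change (KO over WT) with standard error in macrophage-, monocyte-, cDC- and neutrophil-like cells, for the members called in at least 1 of these cell types together with Lamp1 and Ctsh; colours mark the cell type and filled points passed the adjusted test. Ctsl is positive at 0.70 in macrophage-like and negative at -0.52 in monocyte-like cells, and Ctss is positive in macrophage-, monocyte- and neutrophil-like cells but -0.18 in cDC-like cells.

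In cDC-like cells (105, 127, 112 and 71 cells) 28 members were tested, 1 rose and 0 fell, against 1.06% and 0.683% of 7178 genes. The panel for these cells joined markers of different dendritic cell subtypes, which were not separated. Ccl22, Ccr7, Fscn1, Tbc1d4 and Il4i1 led their expression over other cells. Psap was at 1015 and 1337 CPM in the WT and 2051 and 1609 CPM in the KO libraries, a log2 change of 0.63 ± 0.15 (SE; edgeR adjusted p = 0.0153), but 0.46 with an adjusted p of 0.394 without KO 1. Ctss was at 1309 and 1160 CPM in the WT and 1049.1 and 1131 CPM in the KO cDC-like cells. The macrophage change exceeded the cDC change for Ctss (by 1.13 ± 0.14, SE), Ctsz (0.59 ± 0.14) and Ctsh (0.58 ± 0.15), where 1.30% of 12313 genes had a larger and 0.560% a smaller change in macrophage-like cells.

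In neutrophil-like cells (148, 71, 285 and 68 cells, with medians of 1467 to 1731 UMIs) 25 members were tested, 2 rose and 0 fell, against 2.47% and 1.39% of 2309 genes. Ctss was at 376 and 432 CPM in the WT and 1100.0 and 942 CPM in the KO libraries, a log2 change of 1.32 ± 0.24 (SE; edgeR adjusted p = 0.0111). These levels were 14.5% to 22.3% of those in macrophage-like cells of the same library, and the C1q genes reached 7.72% in the WT and 17.4% in the KO libraries. Ctsc was at 117 and 64.0 CPM against 390.4 and 198 CPM (log2 change 1.68, edgeR adjusted p = 0.0263), which is 4.94% to 8.33% of the macrophage level in the WT and 10.4% to 18.4% in the KO libraries, not above the C1q share in every library. The part of free RNA in both was not tested. Without KO 2 neither passed, and without KO 1 Ctsc did not.

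Gla had the opposite sign in neutrophil-like cells, at 284 and 328 CPM in the WT and 106 and 207 CPM in the KO libraries (log2 change -1.16, edgeR adjusted p = 0.0688). The macrophage change of Gla exceeded the neutrophil change by 1.73 ± 0.37 (SE; edgeR adjusted p = 0.00099), where 0.459% of 11971 genes had a larger and 0.0501% a smaller change in macrophage-like cells. The V-ATPase genes supplied 0.350% and 0.363% of neutrophil UMIs in the WT and 0.252% and 0.271% in the KO libraries, and 0 of the 5 tested passed. Atp6v0c was at 2722 and 2743 CPM against 1957 and 2098 CPM (log2 change -0.47, edgeR adjusted p = 0.217). It supplied most of these pump sums, and its level is uncertain because of its pseudogenes. The separation of the neutrophil pump sums is therefore not read as a result for the other pump genes.

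In CD4 T-like cells (94, 124, 186 and 148 cells) 28 members were tested, 2 rose and 0 fell, against 0.700% and 0.218% of 6430 genes. Psap was at 224 and 205 CPM in the WT and 476 and 315 CPM in the KO libraries (log2 change 0.91, edgeR adjusted p = 0.0139), and 0.46 with an adjusted p of 0.612 when barcodes with markers of 2 lineages were kept. Its share of the macrophage level was above the C1q share in every library. Macrophage-like cells themselves held Psap at 2618 and 2254 CPM in the WT and 3832 and 3291 CPM in the KO libraries. Ctsl was at 61.4 and 69.4 CPM against 149.7 and 121 CPM (log2 change 1.05, edgeR adjusted p = 0.0122), which is 5.21% to 5.57% of the macrophage level in the WT and 6.86% to 8.01% in the KO libraries, where the C1q genes reached 3.30% in the WT and 7.87% in the KO libraries; the Ctsl share was not above the C1q share in every library. The part of free RNA in the Psap and Ctsl results was not tested. Without KO 1 neither passed.

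In CD8 T-like cells (31, 102, 1079 and 486 cells) 31 members were tested and 0 passed in edgeR, where 0.846% of 8396 genes rose and 0.191% fell. DESeq2 called 1, Ctsl, and the share of all genes it called in these cells is not given. The Ctsl share of the macrophage level was not above the C1q share in every library, so this call is not read as expression. Ctsc was at 81.3 and 124 CPM in the WT and 279.9 and 185 CPM in the KO libraries (log2 change 1.14, edgeR adjusted p = 0.0898). The 31 cells of WT 1 limit this comparison, and C1q shares in these cells reached 5.01% in the WT and 7.54% in the KO libraries.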

How the data were processed

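The authors deposited raw UMI counts per gene and barcode for 4 libraries; the file headers name cellranger 5.0.0, and the submitters' processing notes name Cell Ranger 5.0.1, Seurat 3.15 and mm10. The 34 members and all lists were chosen with earlier results of these data known. Barcodes with fewer than 200 genes or more than 20% mitochondrial counts were dropped, and the rest were assigned by 13 marker panels (score of at least 0.15, at least 3 markers, 1.5 times the next score); no doublet caller was run, and barcodes with markers of 2 lineages stayed unassigned. Counts were summed per library and type and tested with edgeR 4.0.16 (filterByExpr, TMM, robust quasi-likelihood fit, Benjamini-Hochberg adjustment over all genes tested, threshold 0.05) in R 4.3.3. Expression is per 1e6 UMIs and covers counting at the 3′ end. NK-like and B-like cells were not tested, having under 20 cells in a library. Members past the threshold in any type are given in full, and up to 4 called genes per further list by size of change. On simulated macrophage counts of 12496 genes the fit recovered 80.4% of 97 genes changed by a log2 of 1 and 19.2% of 99 changed by 0.5. It also made 16 false calls, a larger part of its calls than the threshold of 0.05 sets. On simulated monocyte-like counts there were 14 false calls. For the CD8 T-like counts the recovered shares were 16.0% and 2.0%, with 0 false calls. The test of the difference between types was also simulated, with a log2 difference of 1. Against monocyte-like cells it recovered 31.3% of 198 changed genes, with 12 false calls. Against cDC-like cells it recovered 11.2% of 197, with 2 false calls, and against neutrophil-like cells 0.0% of 195, with 0 false calls. Alternatives were DESeq2 1.42.0, total counts, no filter, each library left out, a replicate block, 3 other cell selections, a 5000 to 15000 UMI window, monocyte-like cells merged in, and equal weights of 8 macrophage ranges (limma 3.58.1); the test within each range alone was chosen after seeing the data. The level of the gene deleted in the KO mice is not reported here.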

Additional observations from a re-analysis of the deposited data

Results flagged for a closer look

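The change between genotypes differed between cell types for 9 pairs of member and type in the test of the difference itself (edgeR, library as a block, adjusted over all genes tested), and every difference is the macrophage-like log2 change less that of the other type. Against monocyte-like cells, where 3.20% of all genes differed, the differences were 1.22 for Ctsl (adjusted p = 5.6e-06), 1.08 for Ctsd (adjusted p = 6.0e-06), 0.56 for Ctss (adjusted p = 0.0029), 0.44 for Hexa (adjusted p = 0.0245) and 0.37 for Lamp1 (adjusted p = 0.0445). Ctsl and Ctsd had positive changes in macrophage-like cells (0.70 and 0.79) and negative ones in monocyte-like cells (-0.52 and -0.30). The monocyte-like change of Ctsd did not pass, and that of Ctsl lost its call under the stricter assignment and in the UMI window.

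Against cDC-like cells, where 1.86% of all genes differed, the differences were 1.13 for Ctss (adjusted p = 1.4e-13), 0.59 for Ctsz (adjusted p = 0.0041) and 0.58 for Ctsh (adjusted p = 0.0090). Against neutrophil-like cells, where 0.510% differed, the difference was 1.73 for Gla (adjusted p = 0.00099), from 0.60 in macrophage-like and -1.16 in neutrophil-like cells. Without KO 1, Ctsl, Ctsd, Ctss and Hexa still differed from monocyte-like and Ctss from cDC-like cells, and Gla did not pass against neutrophil-like cells.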

How the results depend on the processing

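With 2 libraries per genotype, few calls survive the loss of a library, and some types have few cells or shallow ones. Of the 34 members, the number passing in macrophage-like cells, 10 as reported, was 4 to 10 with a library left out, 20 with DESeq2, and 6 and 22 in the Lyve1 Cd163 Folr2 and Mki67 Top2a Birc5 ranges alone. In monocyte-like cells 6 became 2 in the UMI window and 3 to 5 with a library left out. In cDC-like cells 1 became 0 with DESeq2, 2 with barcodes of 2 lineages kept, with no filter and with total counts, and 0 to 3 with a library left out. In neutrophil-like cells 2 became 1 with DESeq2, 4 under the stricter assignment and 0 to 3 with a library left out. In CD8 T-like cells 0 became 1 with DESeq2, 8 with no filter and 0 to 6 with a library left out, and in CD4 T-like cells 2 became 0 with DESeq2 and in the UMI window, 1 with barcodes of 2 lineages kept and 0 to 4 with a library left out. The members that differed from macrophage-like cells numbered 3 to 7 against monocyte-like, 1 to 3 against cDC-like (1 with total counts) and 0 to 2 against neutrophil-like cells with a library left out. For most of these settings the share of all genes called is not given, so the counts show only how far the calls moved. The causes were not tested.

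The sign of members near 0 in macrophage-like cells depended on the setting. Under total counts the log2 change was -0.041 for Lgmn, -0.021 for Gusb, -0.12 for Tfe3, -0.016 for Atp6v0d1, -0.12 for Atp6v1b2 and -0.0074 for Atp6v1h. With equal range weights it was -0.11 for Tfe3, -0.010 for Atp6v0d1, -0.12 for Atp6v1b2 and -0.042 for Atp6v1h. In the UMI window it was 1.04 for Ctsk, -0.063 for Lgmn, -0.0028 for Tfe3 and -0.055 for Atp6v1b2, and under the stricter assignment -0.013 for Tfe3. With a library left out it ran from -0.069 to 0.27 for Lgmn, from -0.055 to 0.067 for Tfe3, from -0.14 to 0.14 for Mcoln1 and from -0.052 to 0.084 for Atp6v1b2. Neutrophil-like and CD8 T-like cells were too shallow for the UMI window, which was not run there.

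The labels give replicate numbers shared by WT and KO but do not say whether these pair the libraries. The correlation of same-numbered deviations was -0.034 in macrophage-like, 0.051 in monocyte-like and -0.051 in CD8 T-like cells. With 2 libraries per genotype, values near 0 show no sign of pairing but cannot exclude it. With the replicate block, 10 members passed in macrophage-like, 7 in monocyte-like, 1 in cDC-like, 0 in neutrophil-like, 3 in CD8 T-like and 3 in CD4 T-like cells. Apart from neutrophil-like cells, the share of all genes called under the block is not given. These counts therefore have no background and are not read as a result about the members. In macrophage-like cells these were not the same 10: Ctsb and Atp6v0d2 passed (edgeR adjusted p = 0.0493 and 0.0456), and Man2b1 and Lipa did not (0.0626 and 0.0518). Of the further lysosomal genes named, Npc2, Cd68, Cst7, Acp5, Tcirg1 and Atp6v1e1 did not pass under the block either. The block left 0 of all genes called in neutrophil-like cells.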
